A study of Homo sapiens with 6 samples.

Results

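S100 genes encode small calcium-binding proteins, and 10 of them were followed here through 6 human prostate cancer cell lines: S100A2, S100A4, S100A6, S100A10, S100A11, S100A13, S100A14, S100A16, S100P and S100B. The members were taken by gene name from the deposited tables, which list 47032 different names. Each of the 10 names had 1 entry, so no values had to be summed. The set was chosen by a measured value, because the increase of S100A6 in the LAPC4-CR library was among the largest there. Among 16236 tested genes its change in that pair was the second largest, at 5.25 on a log2 scale, behind RLN1 at 6.67, a gene with a close copy in RLN2, and ahead of CEACAM6 at 5.04. That increase is therefore given as a description and is not tested.

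The study set 3 castration-sensitive lines beside 3 castration-resistant lines that share their names. LNCaP and LAPC4 were derived from lymph node metastases and VCaP from a vertebral metastasis. The parental medium was RPMI for LNCaP and LAPC4 and DMEM for VCaP, with fetal bovine serum at 10%. Their counterparts LNCaP-abl, LAPC4-CR and VCaP-CR were kept in RPMI with charcoal-stripped serum, which is depleted of steroids, also at 10%, and with B27 supplement; no line received another treatment. Each line is 1 cultured line and gave 1 library, so line, medium and library cannot be told apart within a pair, and p-values below measure the spread between lines and libraries.

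S100 proteins carry a pair of EF-hand loops, mostly work as dimers, and on binding calcium expose a surface that grips partner proteins such as annexins, myosin or ezrin. Some members are also released from cells and bind the receptor RAGE, encoded by AGER. Most of the genes lie in a cluster on the long arm of chromosome 1, and in carcinomas several members are known as markers of epithelial state, motility or invasion.

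The libraries held 8661337 to 22433655 counts, and in each pair the resistant library was the deeper one. Protein-coding genes took a larger share of the counts in the resistant library of each pair (67.8% and 77.4% for LNCaP, 62.8% and 68.0% for VCaP, 68.3% and 79.5% for LAPC4), and small RNA classes a smaller one (12.98% to 21.5%, against 22.1% to 26.98% in the parents). The part of this in the changes below was not tested. Levels are given as scaled FPKM, that is the deposited length- and depth-corrected counts (fragments per kilobase of gene, per library total) divided by 1 factor per library. A change is given as log2(scaled FPKM + 1) in the resistant line minus that in its parent, a scale that understates changes of low genes. Ratios are given without the added 1, with exact 95% intervals that cover counting error alone. The luminal markers KRT8, KRT18, EPCAM and CDH1 were at 13.4 scaled FPKM or more in every library, and the basal markers KRT5, KRT14 and TP63 summed to 2.22 or less. KLK3, the prostate-specific antigen gene, was at 108 or more in the sensitive lines and at 19.1 or less in the resistant ones. Leukocyte markers (PTPRC, CD68, LYZ, CD14) summed to 2.73 or less. Of 4 fibroblast markers, LUM alone stood out, at 50.1 in VCaP-CR against 3.94 or less elsewhere, while COL1A1, COL1A2 and DCN stayed at 0.712 or less in all 6 libraries. Because the RNA is bulk RNA, a different share of cells holding an RNA and a different amount per cell cannot be told apart.

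S100A11 was the most abundant member in 5 of the 6 libraries, and S100A10 was the first in VCaP-CR. As a share of the summed scaled FPKM of 21 S100 genes, S100A11 made up 76.8%, 45.6% and 87.8% in the parents LNCaP, VCaP and LAPC4, and 67.0%, 36.8% and 46.0% in their resistant lines. S100A10 held 45.5% in VCaP and 47.3% in VCaP-CR, against 1.50% in LNCaP and 0.701% in LAPC4. S100A6 held 0.992% to 1.88% in 5 libraries and 33.5% in LAPC4-CR. The family's sum, parent first, was 88.7 and 112 scaled FPKM for LNCaP, 121 and 89.4 for VCaP, and 265 and 411 for LAPC4. The stacked shares thus show S100A11 as the main part in LNCaP, LNCaP-abl and LAPC4. It stood beside S100A10 in both VCaP lines and beside S100A6 in LAPC4-CR.

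**Figure D1:**
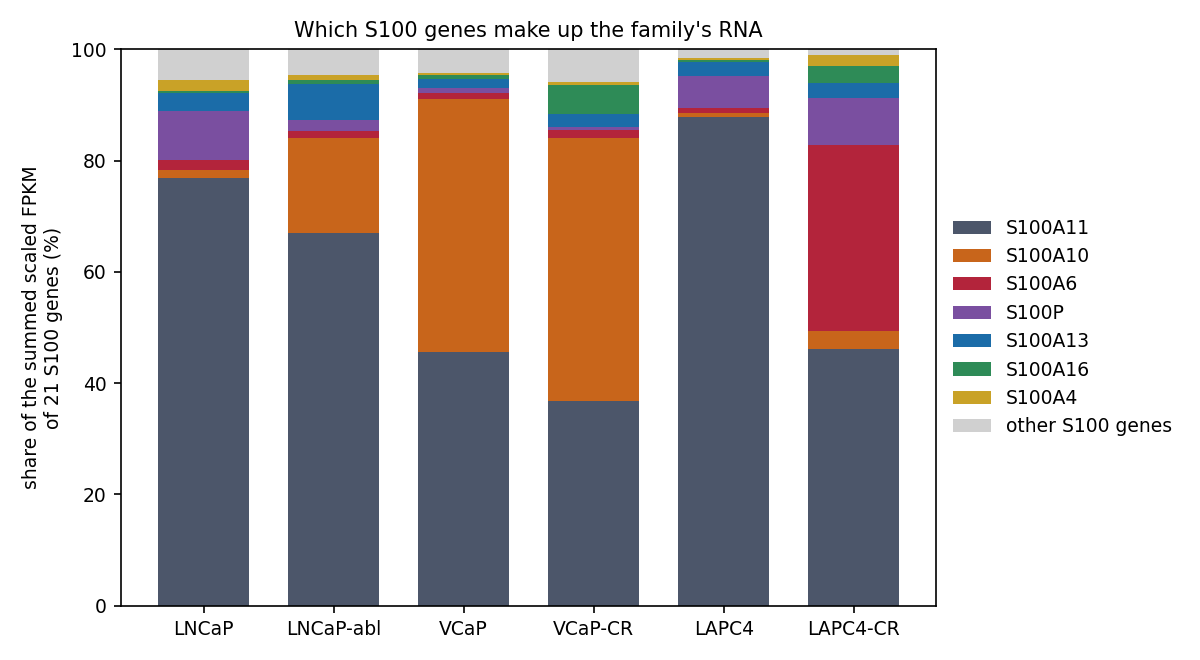
Share (%, y axis) of each S100 gene in the summed scaled FPKM of 21 S100 genes for the 6 libraries (x axis), 1 library per bar. S100A11 is the largest part in 5 bars, S100A10 takes 45.5% and 47.3% in the VCaP lines, and S100A6 takes 33.5% in LAPC4-CR.

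Of the 10 members, 7 reached the minimum for testing, an average of 1 scaled FPKM over the libraries. S100A14 (mean 0.754), S100A2 (0.441) and S100B (0.239) did not. S100A4 passed at a mean of 2.20 through LAPC4-CR, since its mean over the other 5 libraries was 0.972. S100A6 had a mean of 24.3, and 1.62 without LAPC4-CR.

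**Figure D2:**
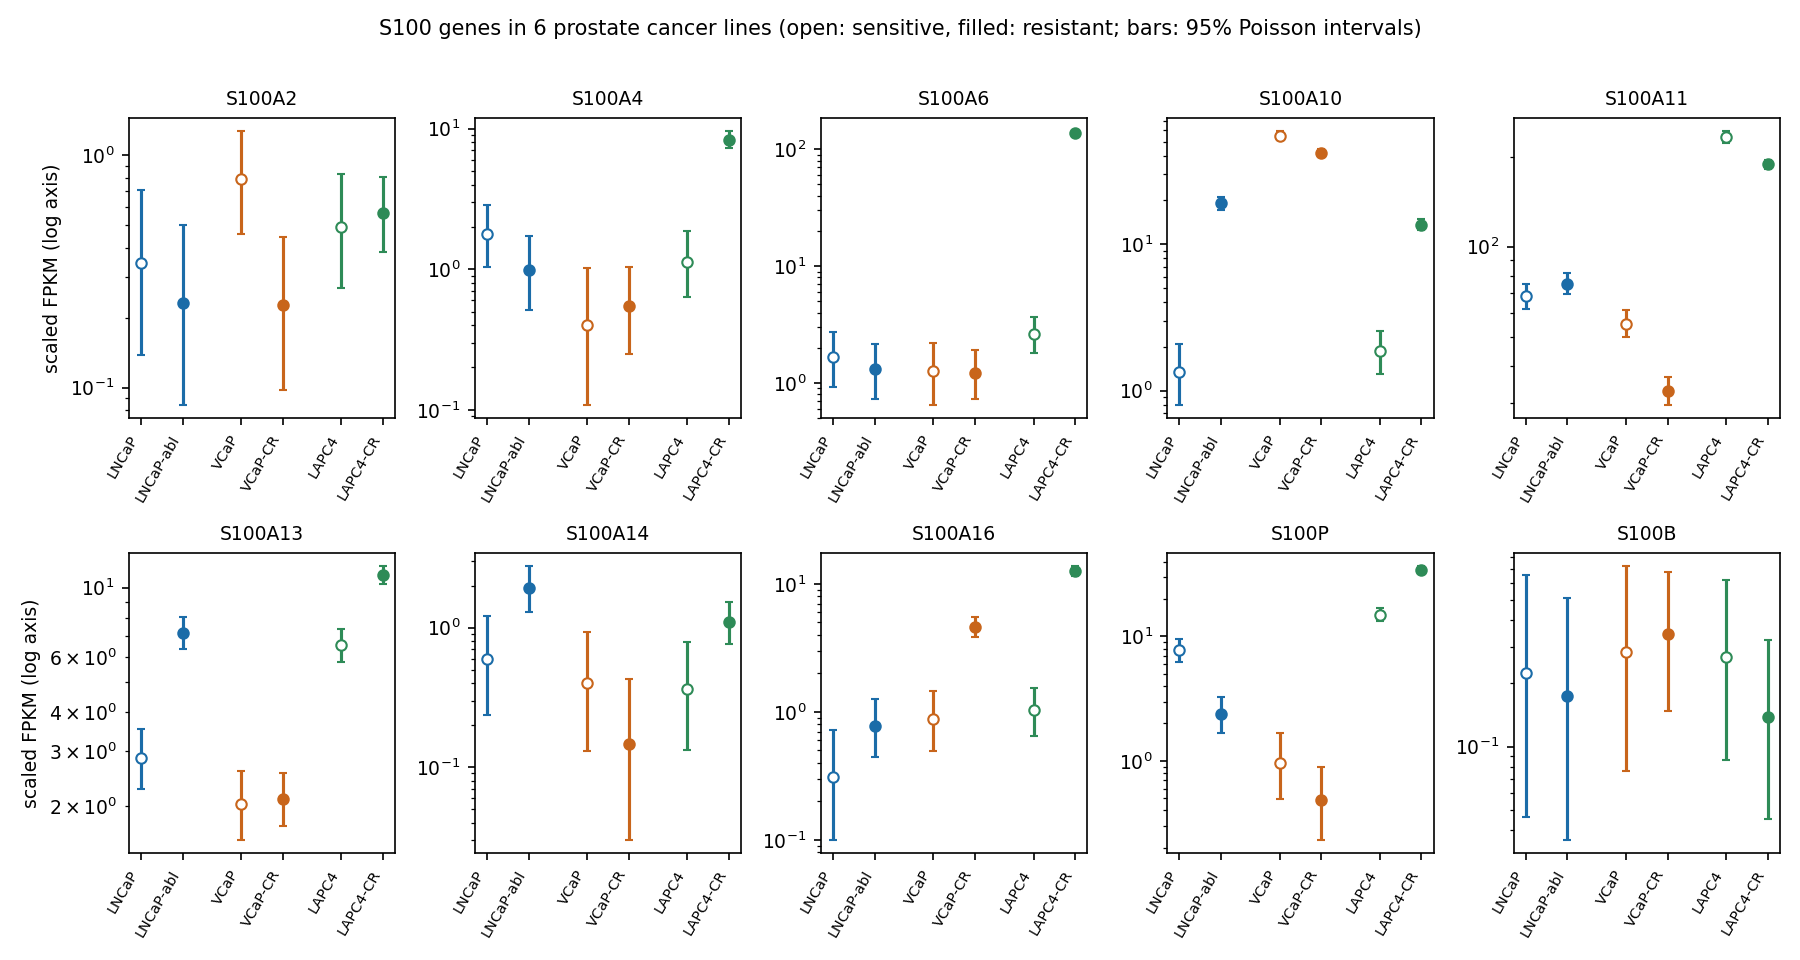
Scaled FPKM (log y axis, a scale of its own in each panel) of the 10 members in the 6 libraries (x axis), with open points for sensitive and filled points for resistant lines and bars for 95% Poisson intervals. S100A6 sits between 1.22 and 2.63 in 5 libraries and at 137 in LAPC4-CR, while S100A11 is at 32.9 or more in each library.

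S100A6, or calcyclin, binds annexins and the ubiquitin-ligase adaptor CACYBP (ENSG00000197956, chromosome 1, 151773699 to 151775344 in hg18, the build named in the submitters' processing notes). In parent and resistant line it read 1.67 and 1.31 scaled FPKM for LNCaP, 1.26 and 1.22 for VCaP, and 2.63 and 137 for LAPC4. The counts behind these were 15 and 15, 12 and 19, and 33 and 3323. LAPC4-CR stood alone, and the Poisson intervals of each neighbouring pair among the other 5 libraries overlapped. The LAPC4 ratio was 52.3 (37.2 to 76.1), which describes the value the gene was chosen for. In the pairs the choice did not use, the ratios were 0.783 (0.357 to 1.72) for LNCaP and 0.965 (0.445 to 2.18) for VCaP. With edgeR's quasi-likelihood test on these 4 libraries, a model with 1 residual degree of freedom, the log2 change of S100A6 was -0.19 (SE 0.58, adjusted p 0.974). LAPC4-CR also had the lowest sum of 5 prostate markers, 60.8 against 234 or more in the other libraries, with HOXB13 at 31.3 in LAPC4 and 1.60 in LAPC4-CR. The part of this difference in the S100 values of LAPC4-CR was not tested.

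S100A4, also called metastasin, binds non-muscle myosin heavy chain MYH9 and is linked to cell motility (ENSG00000196154, chromosome 1, 151782713 to 151789236). Its levels were lower, with 1.79 and 0.990 scaled FPKM for LNCaP and LNCaP-abl, 0.399 and 0.547 for VCaP and VCaP-CR, and 1.13 and 8.36 for LAPC4 and LAPC4-CR. LAPC4-CR again stood alone above the other 5 libraries. Its LAPC4 ratio was 7.37 (4.37 to 13.4), from 15 to 213 counts. In the LNCaP and VCaP pairs the intervals of the ratio held 1, at 0.553 (0.241 to 1.23) and 1.37 (0.383 to 6.10). S100A4 spans the whole of S100A3, which had 7 counts or fewer in each library. How reads in this overlap were counted is not given in the sources used here.

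S100A6 and S100A4 lie close together and were both highest in LAPC4-CR, so the windows around their transcription starts are shown, each from 250 bases before the start to 50 after. The sequences are RefSeq's in GRCh38.p14, a different build from the hg18 of the gene coordinates. Capitals mark GGGCGG, the GC box bound by Sp1 factors, and TATAAA, the TATA box, looked for on both strands.
S100A6 promoter, chr1:153535942-153536241, minus strand: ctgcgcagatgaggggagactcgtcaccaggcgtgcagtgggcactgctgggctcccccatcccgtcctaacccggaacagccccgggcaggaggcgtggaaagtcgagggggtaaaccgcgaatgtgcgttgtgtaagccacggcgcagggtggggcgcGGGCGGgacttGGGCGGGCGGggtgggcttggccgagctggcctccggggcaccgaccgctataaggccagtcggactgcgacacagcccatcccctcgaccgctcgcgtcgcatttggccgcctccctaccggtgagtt
S100A4 promoter, chr1:153545757-153546056, minus strand: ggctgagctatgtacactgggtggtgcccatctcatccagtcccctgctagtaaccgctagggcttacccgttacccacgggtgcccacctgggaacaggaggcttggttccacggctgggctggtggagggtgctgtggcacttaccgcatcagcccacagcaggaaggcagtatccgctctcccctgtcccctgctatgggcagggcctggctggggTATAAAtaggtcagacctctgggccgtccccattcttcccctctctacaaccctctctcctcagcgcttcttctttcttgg
The S100A6 window had 3 matches to GGGCGG, of which 2 overlap, no TATAAA and 31 CG dinucleotides. The S100A4 window had 1 TATAAA, which begins 31 bases before the start, no GGGCGG and 8 CG dinucleotides. Among all 35116 RefSeq windows, 45.0% held GGGCGG, 11.5% held TATAAA and the median number of CG dinucleotides was 14. The pair of genes thus shared neither exact hexamer. The S100A6 window does hold tataag, a near match to TATAAA that the search did not count. RefSeq gave 13 windows for 9 of the members, and S100B had none in the table. AGAACA, the hexamer of sites bound by the androgen and glucocorticoid receptors, was in 0 of the 13 windows and in 14.8% of all windows. TGANTCA, the AP-1 site, was in 1 window, of S100A2, and in 7.71% of all.

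S100A10, or p11, does not bind calcium and forms a complex with annexin A2 (ANXA2) that ties membranes to actin and, at the cell surface, gathers plasminogen and its activator (ENSG00000197747, chromosome 1, 150222015 to 150233490). Parent and resistant line were at 1.33 and 19.1 scaled FPKM for LNCaP, 55.1 and 42.2 for VCaP, and 1.86 and 13.6 for LAPC4. LNCaP and LAPC4 were low and overlapped within counting error, and the other 4 libraries were high and each apart from the next. The ratio was 14.3 (9.05 to 24.1) in the LNCaP pair, from 19 to 348 counts, and 7.31 (5.23 to 10.5) in the LAPC4 pair. In the VCaP pair, where the parent already had the highest level of all, it was 0.767 (0.699 to 0.841).
S100A10 promoter, chr1:151993810-151994109, minus strand: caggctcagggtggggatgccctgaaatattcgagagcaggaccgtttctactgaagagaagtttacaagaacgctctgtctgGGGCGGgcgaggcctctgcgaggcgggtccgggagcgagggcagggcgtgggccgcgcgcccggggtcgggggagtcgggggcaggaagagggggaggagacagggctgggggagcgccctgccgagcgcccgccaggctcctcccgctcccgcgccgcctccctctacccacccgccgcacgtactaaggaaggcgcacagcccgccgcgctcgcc
This window, shown because the gene differed in the LNCaP pair as well as in the LAPC4 pair, had 1 GGGCGG, no TATAAA and 32 CG dinucleotides.

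ANXA2, the partner of S100A10, did not follow it in each pair. ANXA2 read 0.897 and 1.26 scaled FPKM in the LNCaP pair, 6.26 and 27.6 in the VCaP pair, and 11.8 and 40.5 in the LAPC4 pair. In LNCaP-abl S100A10 was thus higher than in its parent with ANXA2 near 1, and in VCaP-CR ANXA2 was higher with S100A10 slightly lower. In the LAPC4 pair both were higher in the resistant line. AHNAK, a very large scaffold protein that binds the S100A10 complex, was at 8.09 and 10.7 in the LNCaP pair, 5.83 and 29.7 in the VCaP pair and 22.5 and 76.1 in the LAPC4 pair, an order of changes like that of ANXA2. LUM was also higher in VCaP-CR, as given above, and its part in the ANXA2 and AHNAK values was not tested.

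**Figure D3:**
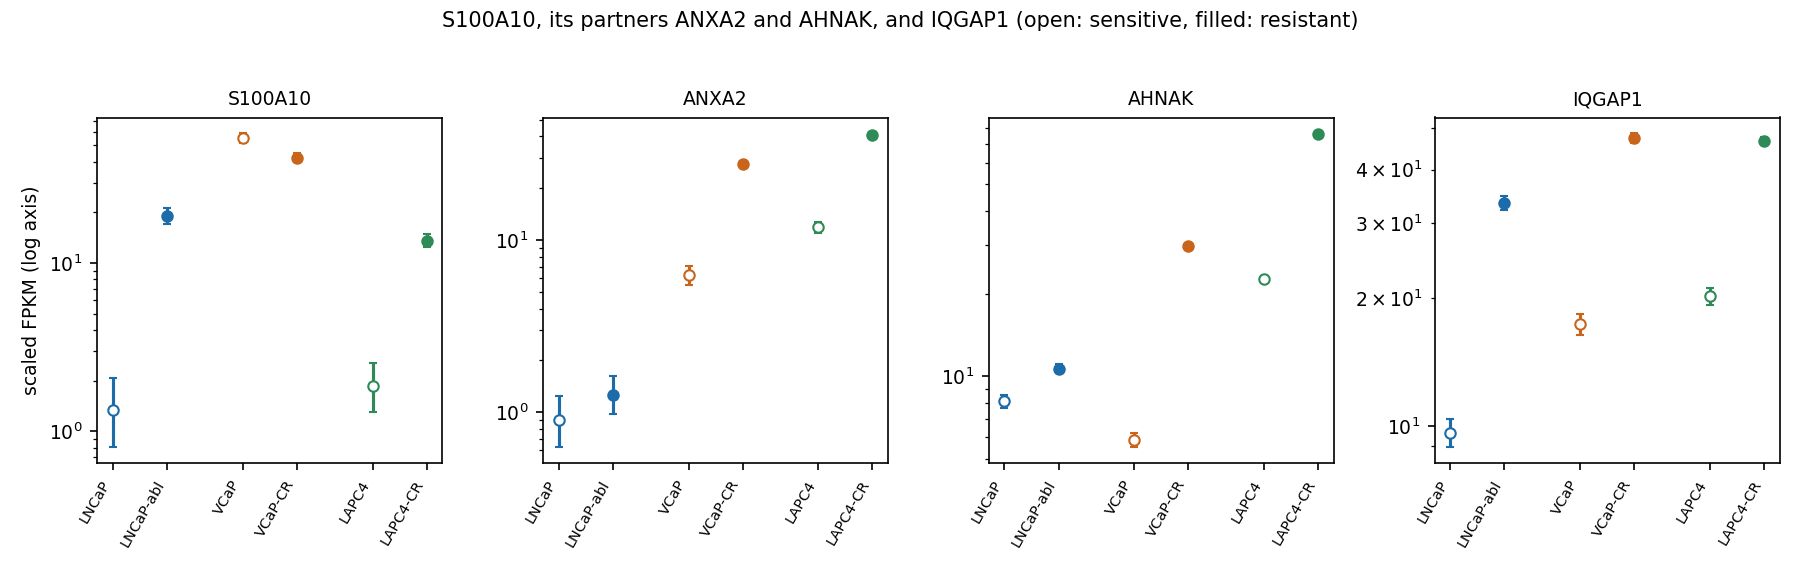
Scaled FPKM (log y axis, a scale of its own in each panel) of S100A10, ANXA2, AHNAK and IQGAP1 in the 6 libraries (x axis), open for sensitive, filled for resistant, with 95% Poisson intervals. S100A10 is lower in VCaP-CR than in VCaP, while AHNAK and IQGAP1 are higher in each resistant library than in its parent. ANXA2 is higher in VCaP-CR and LAPC4-CR, and its ratio in the LNCaP pair, 1.41 (0.918 to 2.20), is within counting error of 1.

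S100A16, a broadly expressed member with one weak calcium site, was higher in the resistant library of each pair (ENSG00000188643, chromosome 1, 151845986 to 151852268). Parent and resistant line were at 0.311 and 0.779 scaled FPKM for LNCaP, 0.883 and 4.63 for VCaP, and 1.03 and 12.6 for LAPC4. VCaP-CR and LAPC4-CR stood above the 3 sensitive lines, and LNCaP-abl overlapped with VCaP and LAPC4 within counting error. The ratios were 2.51 (0.877 to 8.75), 5.24 (3.06 to 9.64) and 12.3 (8.08 to 19.5), the first from 5 and 16 counts. With the LAPC4 pair left out, edgeR's log2 change of S100A16 was 1.99 (SE 0.58, p 0.00819, adjusted p 0.622, higher in 2 of 2 pairs), which did not pass the threshold. Without a filter on low genes it passed (edgeR adjusted p 0.0245), and over the other alternatives its adjusted p lay between 0.263 and 0.9997.

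S100A14, the gene beside S100A16, is an epithelial member whose product pairs with S100A16. It was at 0.592 and 1.92 scaled FPKM in the LNCaP pair, 0.400 and 0.146 in the VCaP pair, and 0.364 and 1.10 in the LAPC4 pair, on 3 to 35 counts. Its ratio was 3.24 (1.39 to 8.78) in the LNCaP pair and 3.03 (1.26 to 8.81) in the LAPC4 pair. The ratio in the VCaP pair, 0.366, had an interval of 0.0568 to 1.88, against 5.24 for S100A16 there. The ratios of the 2 genes therefore lay on the same side of 1 in the LNCaP and LAPC4 pairs. In the VCaP pair the interval of S100A14 held 1, so its side there is not settled.

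S100A13 takes part in the release of FGF1 and IL1A, proteins that leave the cell without a signal peptide (ENSG00000189171, chromosome 1, 151857887 to 151873497). It was at 2.85 and 7.17 scaled FPKM in the LNCaP pair, 2.03 and 2.11 in the VCaP pair, and 6.54 and 10.96 in the LAPC4 pair. The ratios were 2.52 (1.97 to 3.25), 1.04 (0.756 to 1.44) and 1.67 (1.46 to 1.93). The 2 VCaP libraries and LNCaP were low, and the other 3 were high. FGF1 was at 0.491 or less in every library, and IL1A was lower in the resistant library of each pair, most in LNCaP-abl, from 7.63 to 3.19. S100A13 overlaps S100A1, which had 5 to 61 counts, and an end of CHTOP, and whether the counting used strand is not given in the sources used here.

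S100P, first found in placenta, activates ezrin (EZR) and is counted among carcinoma markers of invasion (ENSG00000163993, chromosome 4, 6745697 to 6749798). Parent and resistant line were at 7.76 and 2.38 scaled FPKM for LNCaP, 0.958 and 0.487 for VCaP, and 15.0 and 34.5 for LAPC4. The LAPC4 lines were the highest, LNCaP came next, and LNCaP-abl overlapped with VCaP within counting error. Its ratio was 0.306 (0.202 to 0.455) in the LNCaP pair and 2.30 (2.003 to 2.65) in the LAPC4 pair, on opposite sides of 1. The VCaP ratio, 0.508 (0.197 to 1.28), rested on 12 and 10 counts. Without the LAPC4 pair, edgeR's log2 change of S100P was -1.40 (SE 0.53, p 0.0273, adjusted p 0.714, lower in 2 of 2 pairs). EZR did not follow S100P in each pair, with 6.80 and 21.2 in the LNCaP pair, 39.6 and 40.5 in the VCaP pair and 59.8 and 87.6 in the LAPC4 pair. In the LNCaP pair EZR was higher in the resistant line and S100P lower, and in the LAPC4 pair both were higher. In the VCaP pair the interval of the ratio held 1 for both.
S100P promoter, chr4:6693628-6693927, plus strand: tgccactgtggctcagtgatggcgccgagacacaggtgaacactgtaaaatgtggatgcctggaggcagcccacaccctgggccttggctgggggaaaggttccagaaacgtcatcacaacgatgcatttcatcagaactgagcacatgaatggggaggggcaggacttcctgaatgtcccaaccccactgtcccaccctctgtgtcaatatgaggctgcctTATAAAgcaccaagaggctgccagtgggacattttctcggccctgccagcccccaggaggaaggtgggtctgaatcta
This window, shown because S100P lies outside the cluster and went opposite ways, had 1 TATAAA beginning 28 bases before the start, no GGGCGG and 5 CG dinucleotides.

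S100A11, or calgizzarin, binds annexins and takes part in membrane repair and growth control (ENSG00000163191, chromosome 1, 150271606 to 150287007). It was at 68.1 and 75.1 scaled FPKM in the LNCaP pair, 55.3 and 32.9 in the VCaP pair, and 233 and 189 in the LAPC4 pair. Both LAPC4 libraries lay above the other 4. Within pairs the ratios were 1.10 (0.973 to 1.25), 0.595 (0.513 to 0.690) and 0.812 (0.768 to 0.859), so S100A11 moved by less than 2-fold in each pair. Its pseudogene S100A11P1 was also highest in the LAPC4 lines, at 6.95 and 4.64, and reads of gene and pseudogene could have been exchanged.

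S100A2, a basal epithelial member, and S100B, known from glia and melanocytes, were near the floor. S100A2 lay between 0.226 and 0.788 scaled FPKM on 6 to 31 counts, with intervals of the ratio that held 1 in the LNCaP and LAPC4 pairs. In the VCaP pair it was lower in the resistant line, at a ratio of 0.287 (0.107 to 0.701) from 17 and 8 counts. S100B lay between 0.139 and 0.344 on 3 to 8 counts, and no difference was detectable at this depth. SOX10 and PMEL, markers of melanocytes, were at 1.27 scaled FPKM or less in every library.

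**Figure D4:**
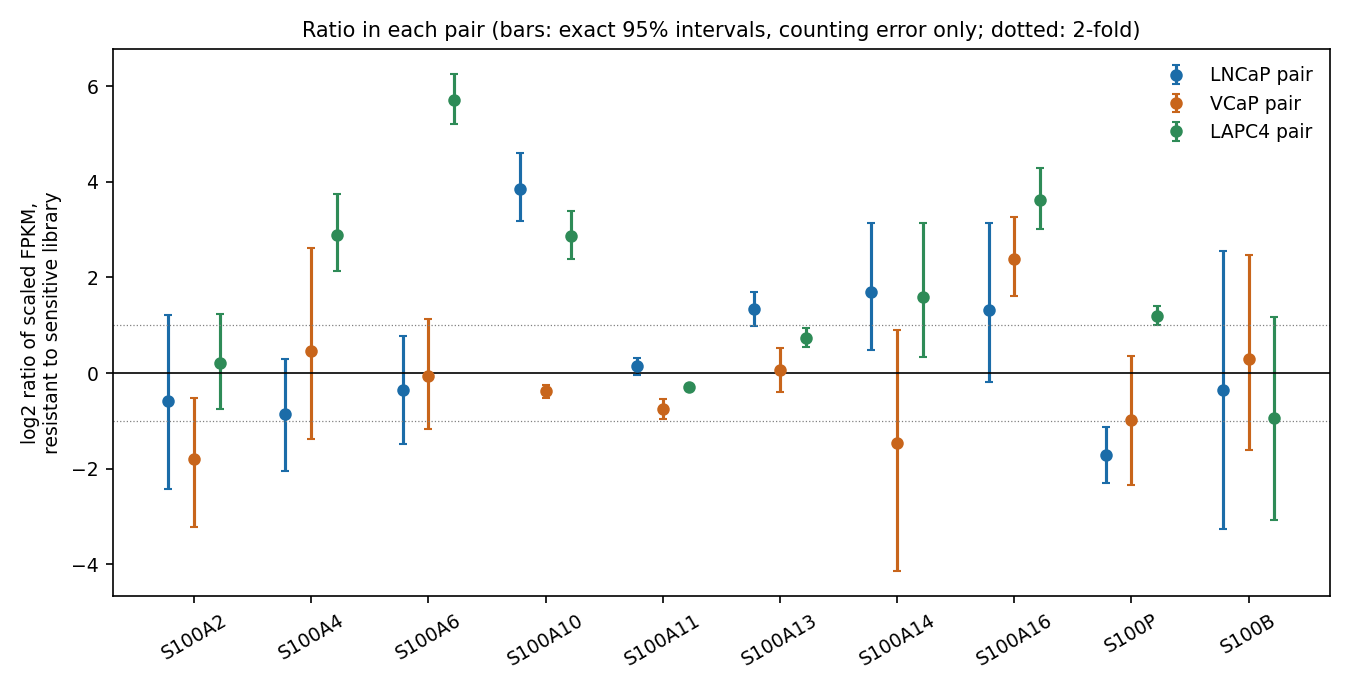
Log2 ratio of scaled FPKM, resistant to sensitive library (y axis), for the 10 members (x axis) in the 3 pairs (colours), with exact 95% intervals for counting error and dotted lines at 2-fold. S100A6 in the LAPC4 pair and S100A10 in the LNCaP pair are the highest points, and S100P lies below 0 in the LNCaP pair and above it in the LAPC4 pair.

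Counting the 7 tested members past 2-fold in log2(scaled FPKM + 1) gave a different set in each pair. The 7 include S100A4, which reached the minimum for testing through LAPC4-CR and was not past 2-fold in the LNCaP and VCaP pairs. In the LNCaP pair S100A10 and S100A13 were higher (2 of 7, against 6.23% of all tested genes) and S100P was lower (1 of 7, against 6.22%). S100A13 was close to that line, with a change of 1.09, and 0.996 where the scaling used protein-coding genes alone. That scaling moved the shares of all genes in the LNCaP pair to 5.0% higher and 7.64% lower. In the VCaP pair S100A16 was higher (1 of 7, against 2.37%) and 0 were lower (2.04%). With FPKM as deposited these shares of all genes in the VCaP pair were 2.55% and 1.44%. In the LAPC4 pair S100A4, S100A6, S100A10, S100A16 and S100P were higher (5 of 7, against 5.22%) and 0 were lower (5.3%). The choice of members used the LAPC4 pair, so nothing is read from its count. The median change of the 7 was 0.14 for LNCaP and -0.03 for VCaP, against -0.01 in both pairs over all tested genes. In the LAPC4 pair the median was 2.13, which is the change of S100A4 itself, against -0.02. Nothing is read from that median either.

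Whether the members differed in common between resistant and sensitive lines was asked with edgeR, with the parental line as a block. Over the 3 pairs, 0.0% of genes passed an adjusted p of 0.05 as higher and 0.0% as lower. Of all genes, 1277 had an unadjusted p under 0.05, DESeq2 called 82 higher and 55 lower, and limma called 0. The fitted log2 changes of the members, a description since the fit holds the LAPC4 pair, were 2.63 (SE 0.52) for S100A16, 2.11 (0.84) for S100A10, 1.83 (1.39) for S100A6, 1.01 (0.80) for S100A4, 0.73 (0.34) for S100A13, -0.29 (0.27) for S100A11 and -0.38 (0.63) for S100P. S100A16 and S100A13 were above 0 in 3 of 3 pairs, and the SE of S100A6 was close to its change. For S100A16 in the LNCaP pair and S100A13 in the VCaP pair, the interval of the ratio held 1. Without the LAPC4 pair the change of S100A4 turned to -0.33, and without the LNCaP pair that of S100P turned to 0.45. The change of S100A10 was 1.15 without the LNCaP pair, 3.36 without the VCaP pair and 0.38 without the parental line as a block. With the LAPC4 pair left out, 0.0123% of genes passed as higher and 0.00616% as lower, and 0 of the 7 members passed, with adjusted p between 0.622 and 0.974. Among the 7, S100A4 reached the minimum for testing through LAPC4-CR, so its result in this fit is a description only. In that fit of 4 libraries 1034 genes had an unadjusted p under 0.05, among the members S100A16 and S100P. There DESeq2 called 37 genes higher and 23 lower, and limma called 0.

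Whether the members differed between the parental lines was asked with edgeR's test of line in the same model, in which parent and resistant library of a line stand together. S100A6 and S100A4 were left out here, the one because it was chosen for LAPC4-CR and the other because it reached the minimum through that library. Of all genes, 12.7% passed, and of the other 5 members S100A11 (adjusted p 0.0164) and S100P (0.0222) did. Both were highest in the 2 LAPC4 libraries. S100P was lowest in the 2 VCaP libraries, and so was S100A11, whose levels there were 55.3 and 32.9. S100A13 (adjusted p 0.0531), S100A16 (0.0540) and S100A10 (0.0728) did not pass. S100A10, although at 42.2 or more in the VCaP lines and at 19.1 or less in the others, varied within the LNCaP and LAPC4 lines as described. Without the LAPC4 lines S100P passed (0.0195) and S100A11 did not (0.242), and without the VCaP lines neither did (0.105 and 0.0658). Without the LNCaP lines both passed.

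Along chromosome 1 the members past 2-fold in log2(scaled FPKM + 1) in the LAPC4 pair did not lie side by side. The genes between S100A6, S100A4 and S100A16 were near the floor, which limits what can be seen there. The 17 S100A genes there span bases 150222015 to 151873497, and 9 genes lie in a row from S100A6 to S100A1. Between S100A6 and S100A4, whose LAPC4 changes were 5.25 and 2.13, lies S100A5, which begins 902 bases after S100A6 and had 5 counts or fewer in every library. S100A3 lies within S100A4 and S100A2 between S100A4 and S100A16 (LAPC4 change 2.74), with LAPC4 changes of -0.37 and 0.07 on 2 to 31 counts. S100A14, S100A13 and S100A1 follow, with 0.62, 0.66 and 0.26. The LAPC4 ratios of the neighbours S100A16, S100A14 and S100A13 were 12.3 (8.08 to 19.5), 3.03 (1.26 to 8.81) and 1.67 (1.46 to 1.93), so all were higher beyond counting error. S100A9, S100A12, S100A8, S100A7A, S100A7L2 and S100A7, known from skin and leukocytes, had 21 counts or fewer. Of 74 protein-coding genes outside the family within the span and 500000 bases on each side, 21 were tested. Of these, 2 were at least 2-fold higher and 1 lower in the LNCaP pair, 0 and 0 in the VCaP pair, and 3 and 0 in the LAPC4 pair, against 6.23% and 6.22%, 2.37% and 2.04%, and 5.22% and 5.3% of all tested genes. Their median changes were 0.36, -0.13 and -0.07.

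**Figure D5:**
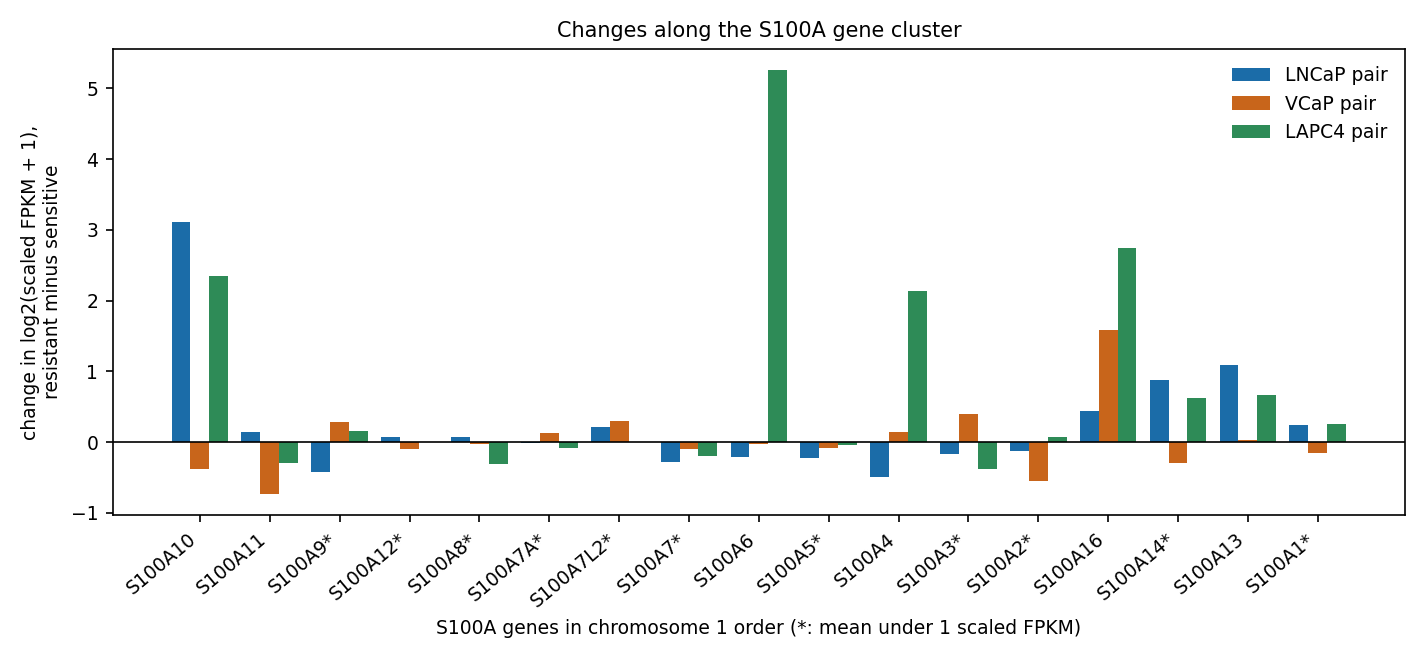
Change in log2(scaled FPKM + 1), resistant minus sensitive (y axis), of the 17 S100A genes in their order on chromosome 1 (x axis, not to scale) for the 3 pairs; stars mark genes with a mean under 1 scaled FPKM. The LAPC4 bars of S100A10, S100A6, S100A4 and S100A16 stand out (2.35, 5.25, 2.13 and 2.74), with low genes between the last 3.

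The other genes of the family added little RNA. Of 11 further S100 genes, 0 had a mean of 1 scaled FPKM, and the highest value was 2.17 for S100Z in VCaP-CR. Of 23 partners and receptors, 17 were tested, and 0 passed either test between the states, against the shares of all genes given above. Within pairs, 2 of the 17 were at least 2-fold higher and 1 lower in the LNCaP pair, 3 and 0 in the VCaP pair, and 7 and 0 in the LAPC4 pair, with median changes of 0.36, 0.03 and 0.71. The shares of all tested genes were 6.23% and 6.22%, 2.37% and 2.04%, and 5.22% and 5.3%. Their largest changes were those of AHNAK (2.17) and ANXA2 (1.98) in the VCaP pair and of ANXA1, a partner of S100A11, in the LAPC4 pair (1.85, from 1.15 to 6.79 scaled FPKM). MYH9, the myosin partner of S100A4, was higher in all 3 resistant libraries, at 19.4 and 33.0 for LNCaP, 8.52 and 12.8 for VCaP, and 10.3 and 26.3 for LAPC4, while S100A4 was higher in LAPC4-CR alone beyond counting error. IQGAP1, a scaffold bound by S100P and S100B and named here after its values were seen, was at 9.66 and 33.4, 17.4 and 47.4, and 20.2 and 46.7, for LNCaP, VCaP and LAPC4 with the parent first. AGER was at 0.787 or less in every library. Between parental lines ANXA6 (adjusted p 0.00325), ANXA2 (0.00973) and EZR (0.0329) passed in edgeR, 3 of 17 against 12.7% of all genes. Of 10 EF-hand genes outside the family, 9 were tested, with 1 past 2-fold, CAPNS1 in the LNCaP pair (1.26, against 6.23% of all tested genes). CALML5 was the 1 of the 9 that passed between parental lines in edgeR (adjusted p 0.00225), against 12.7% of all genes.

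Genes with the most similar profile were looked for among 11328 protein-coding genes, by the root mean square difference of the centred log2 profiles over the 6 libraries. Nearest to S100A6 were CEACAM6 (0.18), MUC1 (0.65) and IGFBP5 (0.80), which were at 66.8, 25.3 and 362 scaled FPKM in LAPC4-CR and at 1.06, 0.198 and 12.4 in LAPC4. Nearest to S100A10 were CA12 (0.71), NEDD9 (0.80) and HOXA13 (0.82). CA12 was at 1.65 and 13.8 in the LNCaP pair, 17.8 and 14.6 in the VCaP pair and 0.483 and 3.07 in the LAPC4 pair. Nearest to S100P were GNB4 (0.36), BHLHA15 (0.43) and ERBB3 (0.49), and GNB4 was at 11.8 and 3.67, 1.49 and 0.620, and 12.1 and 25.8. These likenesses rest on 6 libraries from 3 parental lines, and that of S100A6 on 1 library.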

How the data were processed

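RNA from 6 cell lines, 1 library each, was purified on RNeasy columns and prepared with the SOLiD Total RNA-Seq kit, per the labels' protocols. The submitters' processing notes name HTSeq and hg18, with no version; no aligner or strand setting is given in the sources used here. The deposited tables give whole-number counts per gene and FPKM, per the file headers. The FPKM values deposited by the authors matched, within 1% for each of 51698 entries, a count scaled by gene length and file total. Starts are printed with 1 added.

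The members, lists and tests were chosen with earlier results of these data known. Entries sharing a name were summed (345 names), and 4197 names of small RNA classes were left out. FPKM was scaled by median ratios over 11601 genes with at least 1 FPKM everywhere. The 16236 genes averaging 1 scaled FPKM or more were tested. Counts were tested with edgeR 4.0.16 (quasi-likelihood, TMM, R 4.3.3, Benjamini-Hochberg), with limma 3.58.1 and DESeq2 1.42.0 as alternatives. SE values come from edgeR's F statistic.

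The pairing comes from the line names. As deviations from the mean of each state, parent and resistant line correlated at 0.46 (LNCaP), 0.73 (VCaP) and 0.59 (LAPC4). Between lines the values were -0.48 to -0.06, but each state was centred on its own 3 libraries. Positive values within pairs thus force negative values between lines on average, so the contrast is no separate support for the pairing. The edgeR tests were run on simulated counts, with 1 dispersion (0.121) for all genes and changes set only in genes with many counts. Of 100 genes changed 4-fold, 87 were recovered for state and 79 for line. The simulated counts had no line differences beyond those set, unlike the data, so this recovery does not carry over to the tests above.

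The 10 members were named, with partners, EF-hand genes and nearest profiles by size rules; partners were named at a mean of at least 1 scaled FPKM, 3 per list, or past a test. FGF1, IL1A, MYH9, AGER, S100A1, S100A3, S100A5, S100Z, HRNR and FLG fell outside this rule and were named after their values were seen. DESeq2's line test was a likelihood ratio test, not the planned Wald test. Poisson and ratio intervals are exact 95% intervals and cover counting error only.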

Additional observations from a re-analysis of the deposited data

Results flagged for a closer look

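S100P changed past 2-fold in opposite directions in 2 lines. It was lower in LNCaP-abl than in LNCaP, with a change of -1.37 in log2(scaled FPKM + 1), and higher in LAPC4-CR than in LAPC4, with 1.15, a difference of -2.53 between the LNCaP and the LAPC4 pair. With 1 library for each line and state, this difference was not tested. The counts were 92 and 36 in the LNCaP pair and 248 and 1099 in the LAPC4 pair. With a pseudocount of 5 the changes were -0.79 and 0.98.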

How the results depend on the processing

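Counts of called genes depended on tool and filter. Over the 3 pairs, 0 higher and 0 lower genes became 82 and 55 in DESeq2 and 92 and 56 without a filter on low values; with any 1 pair left out, 0 to 13 were higher and 1 to 20 lower. Without the LAPC4 pair, 2 higher and 1 lower became 37 and 23 in DESeq2, 252 and 148 without a filter, and 25 and 16 with small RNA classes kept, an alternative added after seeing the data. They became 0 and 0 in limma, at a mean of at least 5 scaled FPKM, with protein-coding genes only and without the replicate block. Without that block the 3-pair fit also called 0 and 0. Between parental lines, 2068 genes became 3975 in DESeq2, 1146 at a mean of at least 5, 4879 without a filter and 1294 with protein-coding genes only, and 673 to 3587 with 1 line left out.

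With a pseudocount of 5, members past 2-fold were 1 higher and 0 lower in the LNCaP pair and 0 higher in the VCaP pair. With the scaling over protein-coding genes, 1 was higher in the LNCaP pair. A mean of at least 5 left 5 members, with 0 higher in the VCaP and 3 in the LAPC4 pair. Over the pairs, the log2 change of S100A4 ranged from -0.33 (without the LAPC4 pair) to 2.18 with 1 pair left out, and that of S100P from -1.40 to 0.45 (without the LNCaP pair), and S100P had 0.68 without the replicate block. Of 270 member changes within pairs under alternatives, 255 stayed within counting error and 0 past 2-fold changed sign. Alternatives that changed only the filter could not alter these values, so their part of the 255 was fixed in advance. Keeping only the entry with the most counts could act through the scaling alone, since each member has 1 entry. Over the 3 pairs, S100A16 passed newly in DESeq2 (adjusted p 0.00346) and without a filter (edgeR, 0.0111), and S100A10 without the VCaP pair (edgeR, 0.0461; log2 change 3.36). Without the LAPC4 pair, S100A16 passed newly without a filter (edgeR, 0.0245). Of 64 line tests of members, S100A4 included, 48 kept their side of the threshold, 13 passed newly and 3 were lost. The new passes of S100A4, without a filter and without the LNCaP lines, are a description only, since it reached the minimum through LAPC4-CR. Depth limits S100A2, S100A14 and S100B, at 35 counts or fewer. The cause of these differences was not tested.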

Other observations

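Genes of fused-type S100 proteins, large skin proteins with an S100 domain at one end, lie in the same region of chromosome 1. Of the 7 listed, 0 had a mean of 1 scaled FPKM, and 6, 3 and 7 of the 7 were lower in the resistant library of the LNCaP, VCaP and LAPC4 pair, with an interval of the ratio below 1 for 3, 2 and 4. The median change over all tested genes was -0.01, -0.01 and -0.02, a set that holds 0 of these 7. Over the 42835 genes kept without a filter on low values it was -0.06, 0.0 and -0.03. The share of all genes that were lower is not given here, so nothing is read from these counts. HRNR, which encodes hornerin and was chosen after its values were seen, was at 0.370 and 0.0879 scaled FPKM in the LNCaP pair, 1.29 and 0.149 in the VCaP pair, and 3.24 and 0.0668 in the LAPC4 pair. Its ratios were 0.237 (0.104 to 0.493), 0.116 (0.0708 to 0.182) and 0.0206 (0.0117 to 0.0339), so HRNR was lower in the resistant library of each pair. S100A16 was higher beyond counting error in the VCaP and LAPC4 pairs, and its interval in the LNCaP pair held 1. FLG, encoding filaggrin, was at 1.26 in LAPC4 and 0.158 in LAPC4-CR.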
